A study of Mus musculus with 6 samples.

Results

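Interferon-stimulated genes outside the large GBP, IRG, IFIT, OAS, MX and MHC families were examined in cultured cortical astrocytes of Neo1 knockout mice. Neo1 encodes neogenin, a membrane receptor that binds netrin and RGM proteins. The members are 41 genes chosen by symbol, and all 41 were found among the 54532 genes of the deposited count table, each as 1 row. Knockout cultures came from pups with the genotype GFAP-Cre::NEOf/f, in which Cre recombinase is driven by the promoter of GFAP and cuts floxed Neo1 alleles. The control cultures came from littermate pups, whose genotype is given only as control, with library names that carry the floxed allele and no Cre. There were 3 libraries per genotype, of poly-A selected RNA from primary astrocytes, and the labels give no age, sex, litter or treatment. Libraries are labelled as biological replicates with no animal or culture named, so a p-value measures the spread between these 6 libraries, part of which may be technical.

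Interferons are secreted signalling proteins, and those of type I are released by cells that sense foreign or misplaced nucleic acid. Type I interferons, such as interferon beta, act through IFNAR1 and IFNAR2 and the kinases JAK1 and TYK2 to form ISGF3, a transcription factor complex that binds the interferon-stimulated response element (ISRE). Interferon gamma acts through another receptor and on another DNA element, the gamma-activated site (GAS). The genes switched on encode proteins that block viral entry, degrade or edit RNA, modify other proteins and tune the signal, and astrocytes are among the brain cells known to carry out this response.

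All 41 effector genes were higher in the knockout cultures (adjusted p under 0.05, by the quasi-likelihood test of edgeR, adjusted after Benjamini and Hochberg over 18530 genes), and none was lower. Of all genes tested, 19.6% were called higher and 18.7% lower (3627 and 3466 genes, or 2921 and 4499 when libraries were scaled by total counts). In bulk RNA, fewer cells of a type and less RNA per cell cannot be told apart. The 41 genes together took 1.08% to 1.09% of all counts in the knockout libraries, against 0.504% to 0.515% in the control libraries. Values below are CPM, counts scaled to library size with TMM factors, and fold changes are knockout over control on the log2 scale. The median log2 fold change of the members was 1.13, beside −0.0018 over all tested genes, with quartiles at 0.87 and 1.56. By size, 26 members were at least 2-fold higher, a level that 4.02% of all tested genes reached as called rises. A further 11 members rose by 1.5-fold to 2-fold, and 4 by less than 1.5-fold (Xaf1, Adar, Rtp4 and Ifi27). Every knockout library lay above every control library for all 41 members, which held for 24.7% of all tested genes. The lowest knockout library stood at least 1.5 times above the highest control library for 36 members. It stood at least 2 times above it for 21, and the shares of all tested genes at these margins were not computed. Members varied little within a group, with a median coefficient of variation of 3.27% in knockout and 3.82% in control libraries.

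**Figure D1:**
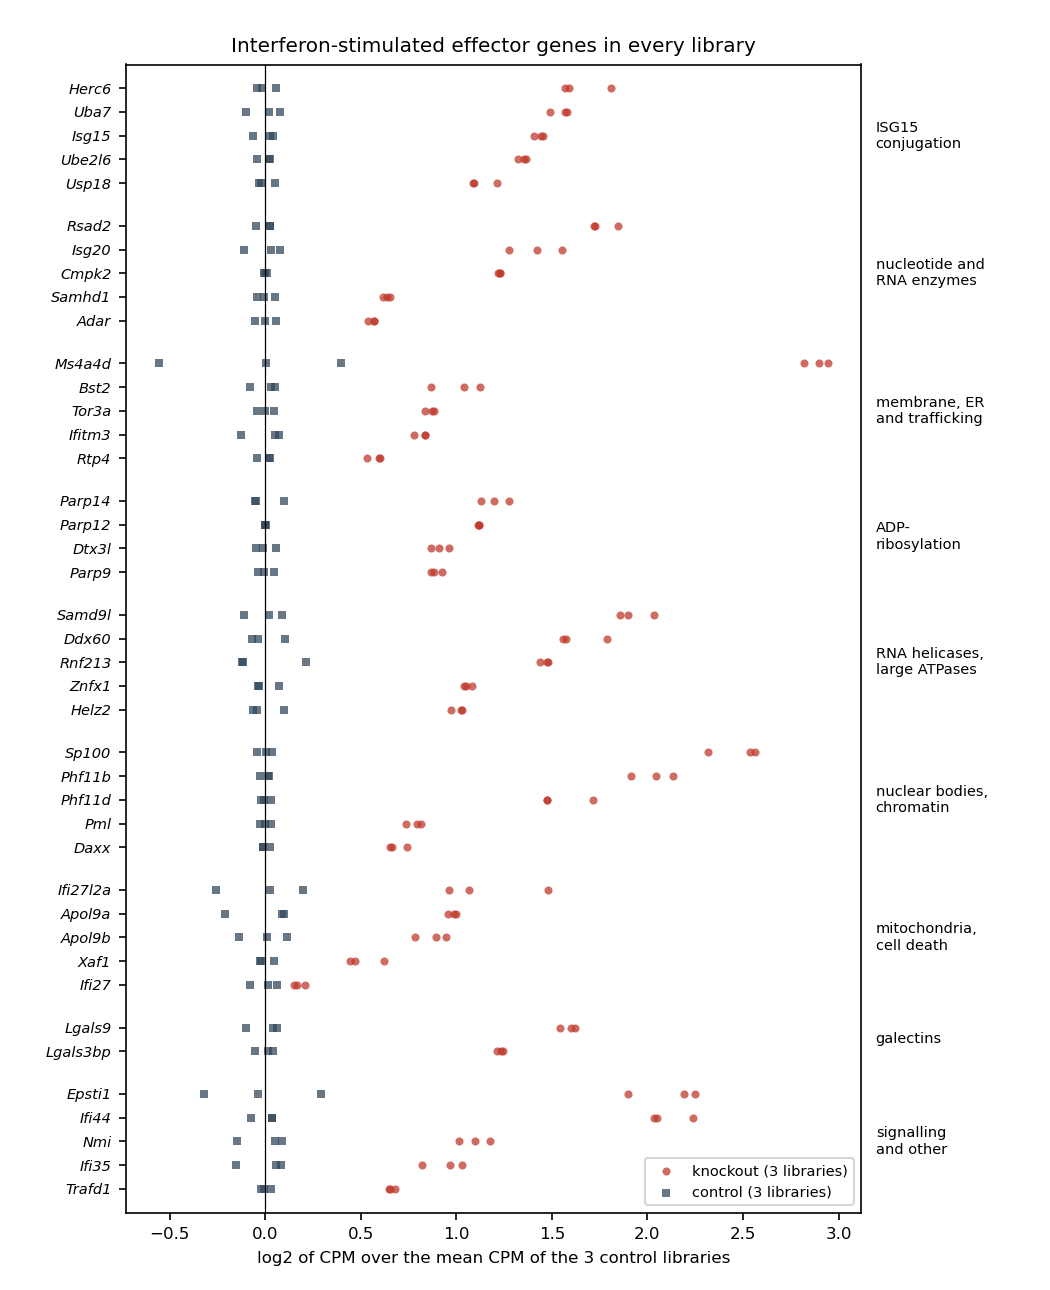
Each row is 1 gene and each point 1 library, as the log2 of its CPM over the mean CPM of the 3 control libraries, with the genes grouped by role and ordered by fold change. All 3 knockout points (circles) lie right of all 3 control points (squares) in each of the 41 rows, from Ms4a4d with a log2 fold change of 2.89 to Ifi27 with 0.17.

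Neo1, the targeted gene, was at 101, 106 and 105 CPM in the knockout libraries, against 189, 189 and 198 CPM in the control libraries (log2 fold change −0.89, SE 0.05, adjusted p = 5.8e-11). It was lower in the knockout cultures with no overlap between groups, at 0.540 of the control level; counts over the whole gene say little about the floxed exons alone. Total counts ran from 74614772 to 97453331 in the knockout libraries and from 60819277 to 106081115 in the control libraries, and mitochondrial genes took 1.73% to 1.91% of the counts in the knockout libraries and 1.67% to 1.71% in the control libraries. Knockout replicate 2 lay away from both others of its group along the first and second principal components (49.3% and 19.6% of the variance). On the first, it stood at −67.0, against −30.0 and −30.5 for knockout replicates 1 and 3, with control libraries at 35.8 to 47.1. It also had counts for fewer genes, 22076 against 25767 and 25030 in knockout replicates 1 and 3. Without it, the count of members called stayed at 41.

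The start regions of 6 members are shown because each holds a match to the ISRE core, the letters through which ISGF3 is known to bind. The 150 bases before the start in RefSeq or in the gene annotation, whichever lies further upstream, are given 5′ to 3′ on the strand of the gene, from RefSeq on build GRCm38.p6, in lower case with matches to the searched motifs in capitals. The places are chr4:156200819-156200968 (minus strand), chr12:26456453-26456602 (minus), chr8:71537473-71537622 (minus), chr11:78984947-78985096 (minus), chr8:61927937-61928086 (plus) and chr14:59341352-59341501 (minus). In Isg15 and Bst2 the matches follow each other in steps of 6 bases, so that their capitals run together, and the capitals of Bst2 begin with a GAS match that overlaps the first of its ISRE matches.
Isg15: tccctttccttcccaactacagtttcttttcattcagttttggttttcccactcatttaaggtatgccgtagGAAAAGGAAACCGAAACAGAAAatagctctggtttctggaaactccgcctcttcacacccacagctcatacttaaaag
Rsad2: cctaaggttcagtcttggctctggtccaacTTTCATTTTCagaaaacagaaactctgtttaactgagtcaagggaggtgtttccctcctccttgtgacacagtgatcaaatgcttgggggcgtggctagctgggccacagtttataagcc
Bst2: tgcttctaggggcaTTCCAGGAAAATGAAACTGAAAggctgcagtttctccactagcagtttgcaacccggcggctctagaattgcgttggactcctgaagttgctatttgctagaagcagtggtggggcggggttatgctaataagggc
Lgals9: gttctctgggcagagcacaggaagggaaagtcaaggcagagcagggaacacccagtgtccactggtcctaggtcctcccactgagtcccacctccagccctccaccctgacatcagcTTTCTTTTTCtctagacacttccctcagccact
Ddx60: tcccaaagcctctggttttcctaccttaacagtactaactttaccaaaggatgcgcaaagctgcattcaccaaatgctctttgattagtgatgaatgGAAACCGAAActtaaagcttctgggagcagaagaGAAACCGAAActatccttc
Phf11b: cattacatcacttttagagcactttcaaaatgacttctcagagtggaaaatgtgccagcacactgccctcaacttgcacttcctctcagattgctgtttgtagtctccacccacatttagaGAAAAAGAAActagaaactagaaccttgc

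The ISRE core was searched as TTTC, any 2 bases and TTTC, and the GAS core as TTC, any 3 bases and GAA, on both strands of windows from 250 bases before to 50 bases after each RefSeq start. Windows were available for 34 of the 41 members and not for Usp18, Rtp4, Tor3a, Parp9, Parp14, Ifi27 and Ifi27l2a. The ISRE core was found for 9 of the 34 (26.5%), against 3.99% of the 27025 genes with a window. These 9 were Isg15, Rsad2, Bst2, Lgals9, Ddx60, Phf11b, Ifitm3, Apol9a and Apol9b, and both matches of Ifitm3 lay just downstream of its start, where a GAS match overlaps 1 of them. The GAS core was found for 6 of the 34 (17.6%), against 9.55% of all genes with a window, in Isg20, Bst2, Ifi35, Ifitm3, Samhd1 and Adar. Members with an ISRE core had a median log2 fold change of 1.43 (0.82 to 2.03), and the other 25 had 1.22 (0.51 to 2.89). Those with a GAS core had a median of 0.88 (0.56 to 1.42), and the other 28 had 1.39 (0.51 to 2.89). The ranges overlap in both contrasts, which were not tested. Apol9a and Apol9b count as 2 of the 9 with an ISRE core, though their windows are identical over 278 aligned bases. A match is a run of letters, a missing match says only that these letters are not in this window, and binding was not measured.

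**Figure D2:**
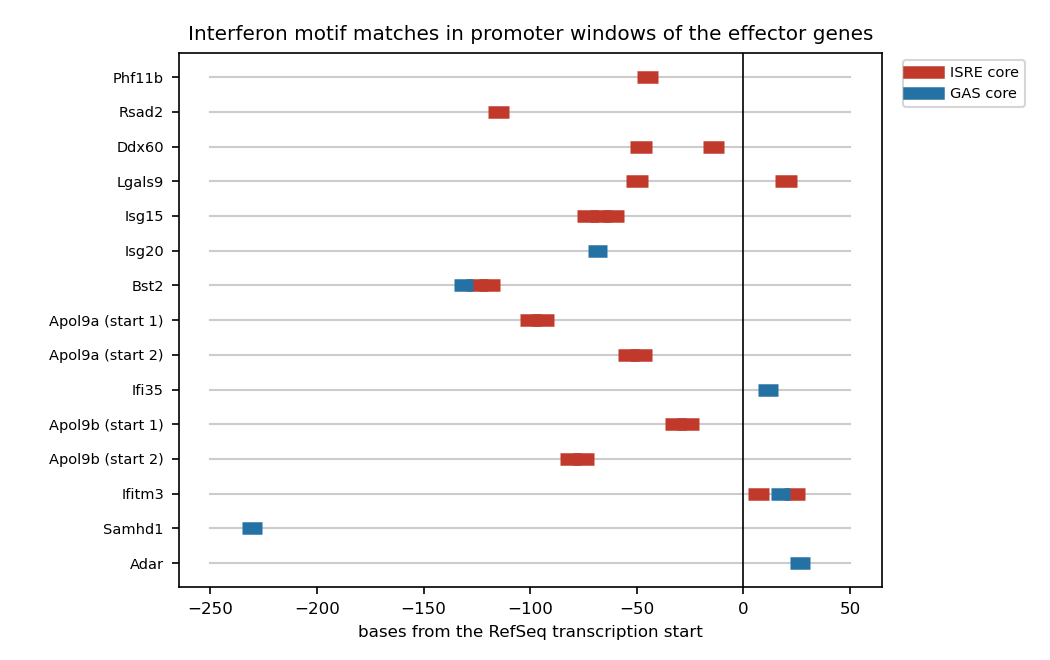
Each row is 1 RefSeq promoter window with at least 1 motif match, ordered by the fold change of its gene, with bases from the transcription start on the horizontal axis. Coloured blocks mark the ISRE core (red) and the GAS core (blue). ISRE matches begin between −130 and −19 bases in most rows, while those of Ifitm3 and one of the matches of Lgals9 lie after the start; genes with more than 1 start have a row for each start that holds a match.

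Genes of ISG15 conjugation all rose, 5 of 5 by more than 2-fold. Isg15 encodes a ubiquitin-like protein that is attached to other proteins and also secreted. Isg15 (ENSMUSG00000035692, GRCm38 chromosome 4, 156199424 to 156200818, minus strand) was at 456, 441 and 452 CPM in the knockout libraries, against 169, 171 and 159 CPM in the control libraries (log2 fold change 1.43, SE 0.04, adjusted p = 5.7e-14). Ube2l6, which encodes the conjugating enzyme, was at 223, 224 and 218 CPM in the knockout libraries, against 88.4, 88.7 and 84.5 CPM in the control libraries (log2 fold change 1.35, SE 0.05, adjusted p = 2.0e-13). Herc6, which encodes the main ISG15 ligase of the mouse, was at 119.8, 142 and 122 CPM in the knockout libraries, against 42.1, 39.3 and 40.0 CPM in the control libraries (log2 fold change 1.66, SE 0.06, adjusted p = 1.1e-12). For each of these 3 genes the groups stood far apart, and knockout replicate 2 was the highest library for Herc6. Uba7, the activating enzyme, averaged 61.3 ± 2.01 CPM in knockout and 21.0 ± 1.32 CPM in control cultures (SD, n = 3 each; log2 fold change 1.55). Usp18, which removes ISG15 from proteins and dampens signalling at the type I receptor, averaged 264 ± 13.5 CPM in knockout and 120.3 ± 3.84 CPM in control cultures (SD, n = 3 each), and its log2 fold change of 1.13 was the smallest of the 5. Of the Isg15 transcript, 482 bases match AC151275.1 at 95.2% identity, and 508 bases of Ube2l6 match Gm17167 at 95.1%, so some reads may be shared.

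Antiviral enzymes that act on nucleotides and RNA rose too, 5 of 5, with 3 of them over 2-fold. Rsad2 encodes viperin, which makes a nucleotide that stops viral RNA synthesis, and it (ENSMUSG00000020641, GRCm38 chromosome 12, 26442746 to 26456452, minus strand) was at 853, 926 and 850.4 CPM in the knockout libraries, against 249.5, 262 and 262 CPM in the control libraries (log2 fold change 1.77, SE 0.05, adjusted p = 5.2e-15). Cmpk2, a mitochondrial nucleotide kinase, was at 364, 365 and 362 CPM in the knockout libraries, against 156, 157 and 155 CPM in the control libraries (log2 fold change 1.22, SE 0.04, adjusted p = 1.7e-13). Rsad2 and Cmpk2 are neighbours on chromosome 12, read away from each other with 12751 bases between them, and both were tight within each group. Isg20, an exonuclease that degrades RNA, was at 44.2, 36.5 and 40.4 CPM in the knockout libraries, against 14.0, 15.9 and 15.4 CPM in the control libraries (log2 fold change 1.42, SE 0.08, adjusted p = 2.2e-10). Its knockout libraries were more spread than those of Cmpk2 and still did not overlap the controls. The smaller rises were those of Samhd1, which hydrolyses deoxynucleotides, with 253 ± 2.98 CPM in knockout and 163 ± 5.55 CPM in control cultures (SD, n = 3 each; log2 fold change 0.64), and of Adar, the RNA editing enzyme ADAR1, with 169 ± 2.08 CPM in knockout and 115 ± 4.36 CPM in control cultures (SD, n = 3 each; log2 fold change 0.56). Exons of Adar overlap those of Chrnb2 on the other strand over 16.8% of their length, so that reads of both genes could be joined if counting ignored strand.

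Membrane and trafficking genes rose in 5 of 5, with 2 of them by more than 2-fold. Tor3a, a torsin ATPase of the endoplasmic reticulum, was at 485, 469 and 482 CPM in the knockout libraries, against 271, 255 and 262 CPM in the control libraries (log2 fold change 0.86, SE 0.04, adjusted p = 2.2e-11). Ifitm3, which blocks the fusion of viruses with endosomes, was at 825, 824 and 792 CPM in the knockout libraries, against 485, 478 and 423 CPM in the control libraries (log2 fold change 0.82, SE 0.05, adjusted p = 4.4e-10). Bst2, or tetherin, which holds budding virus particles at the cell surface, was at 441, 370.2 and 416 CPM in the knockout libraries, against 209.6, 207 and 192 CPM in the control libraries (log2 fold change 1.01, SE 0.06, adjusted p = 4.7e-10). The groups did not overlap for any of these 3 genes. Control replicate 3 was the lowest library for Ifitm3 and Bst2, and knockout replicate 2 was the lowest of its group for Bst2 and Tor3a. Ms4a4d, a tetraspanning membrane protein gene, had the largest fold of all members but a low level, 5.52 ± 0.238 CPM in knockout and 0.745 ± 0.237 CPM in control cultures (SD, n = 3 each; log2 fold change 2.89, SE 0.22), from 35 counts in its lowest library. Rtp4, a receptor transporter protein, averaged 191 ± 5.07 CPM in knockout and 128 ± 3.32 CPM in control cultures (SD, n = 3 each; log2 fold change 0.58).

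The ADP-ribosylation genes rose by similar amounts, with log2 fold changes from 0.89 to 1.20. Parp12, an ADP-ribosyltransferase with zinc fingers, was at 274, 274 and 273 CPM in the knockout libraries, against 126, 126 and 126 CPM in the control libraries (log2 fold change 1.12, SE 0.04, adjusted p = 7.0e-13). Parp14, a larger ADP-ribosyltransferase with macrodomains, was at 619.5, 684 and 649 CPM in the knockout libraries, against 274, 273 and 302 CPM in the control libraries (log2 fold change 1.20, SE 0.05, adjusted p = 2.8e-12). Parp9, which works in a complex with the ubiquitin ligase DTX3L, was at 258, 269 and 261 CPM in the knockout libraries, against 141, 138 and 147 CPM in the control libraries (log2 fold change 0.89, SE 0.04, adjusted p = 3.3e-11). Parp12 was the least variable member in both groups, and the 3 genes were each well separated by genotype. Dtx3l averaged 240.1 ± 7.82 CPM in knockout and 128 ± 4.74 CPM in control cultures (SD, n = 3 each; log2 fold change 0.91), so that Parp9 and Dtx3l, partners as proteins, moved by nearly the same fold. The 2 genes start head to head on chromosome 16 and their exons overlap by 458 bases on opposite strands, so reads there cannot be told apart without strand. Parp14 lies 54966 bases from Dtx3l.

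RNA helicases and large ATPases rose by at least 2-fold in 5 of 5. Samd9l, a restriction factor that halts protein synthesis, was at 241, 274 and 249 CPM in the knockout libraries, against 61.7, 67.7 and 70.8 CPM in the control libraries (log2 fold change 1.93, SE 0.06, adjusted p = 6.5e-14). Znfx1, a helicase that senses viral RNA at mitochondria, was at 642, 637 and 655 CPM in the knockout libraries, against 302, 303 and 325 CPM in the control libraries (log2 fold change 1.06, SE 0.04, adjusted p = 1.9e-12). Ddx60, a helicase that aids RNA sensing, was at 63.9, 75.1 and 64.7 CPM in the knockout libraries, against 21.2, 20.7 and 23.3 CPM in the control libraries (log2 fold change 1.64, SE 0.07, adjusted p = 7.8e-12). Knockout replicate 2 was the highest library for Samd9l and Ddx60 but the lowest knockout library for Znfx1. Rnf213, a giant ubiquitin ligase with an ATPase core, had the highest CPM of all members, 1641 ± 27.1 CPM in knockout and 594 ± 81.7 CPM in control cultures (SD, n = 3 each; log2 fold change 1.47). Its control replicate 3, at 689 CPM, lay above control replicates 1 and 2, at 548 and 546 CPM. Helz2, a helicase that acts as a transcriptional co-activator, averaged 204 ± 4.25 CPM in knockout and 101 ± 6.36 CPM in control cultures (SD, n = 3 each; log2 fold change 1.01).

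Among genes of nuclear bodies and chromatin, 5 of 5 rose, and 3 of them by more than 2-fold. Sp100 (ENSMUSG00000026222, GRCm38 chromosome 1, 85649988 to 85709998, plus strand), a chromatin-binding component of PML bodies, was at 24.5, 25.0 and 21.0 CPM in the knockout libraries, against 4.24, 4.10 and 4.34 CPM in the control libraries (log2 fold change 2.47, SE 0.10, adjusted p = 2.5e-12). The fold change of Pml, which builds these bodies, was smaller (0.78), with 159 ± 4.42 CPM in knockout and 92.2 ± 1.94 CPM in control cultures (SD, n = 3 each). Daxx, a histone H3.3 chaperone of the same bodies, averaged 143 ± 4.76 CPM in knockout and 88.9 ± 1.20 CPM in control cultures (SD, n = 3 each; log2 fold change 0.69). Phf11d, a PHD finger gene, was at 90.5, 107 and 90.3 CPM in the knockout libraries, against 33.2, 32.1 and 32.4 CPM in the control libraries (log2 fold change 1.56, SE 0.07, adjusted p = 4.2e-12). Its neighbour Phf11b was at 19.7, 22.9 and 21.6 CPM in the knockout libraries, against 5.27, 5.29 and 5.12 CPM in the control libraries (log2 fold change 2.03, SE 0.10, adjusted p = 2.2e-11). Both were highest in knockout replicate 2 and nearly level among controls. Phf11b is uncertain in size, since 73.0% of its transcript matches Phf11a at 97.0% identity, and 379 bases of Sp100 match Gm2619 at 98.7%.

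Genes linked to mitochondria and cell death all rose, 5 of 5, but 1 of them by more than 2-fold, and their median log2 fold change was 0.87. Apol9a, an apolipoprotein L gene, was at 54.6, 56.3 and 55.9 CPM in the knockout libraries, against 30.2, 30.0 and 24.4 CPM in the control libraries (log2 fold change 0.98, SE 0.08, adjusted p = 1.2e-08). Apol9b was at 34.2, 30.6 and 33.0 CPM in the knockout libraries, against 17.9, 16.2 and 19.2 CPM in the control libraries (log2 fold change 0.87, SE 0.08, adjusted p = 9.4e-08). These 2 genes are near-identical copies, with 98.4% identity over 1527 bases, and their RefSeq start windows are identical over 278 aligned bases, so their separate values depend on how shared reads were placed. Xaf1, which antagonises the apoptosis inhibitor XIAP, was at 245, 272 and 241 CPM in the knockout libraries, against 174, 183 and 174 CPM in the control libraries (log2 fold change 0.51, SE 0.05, adjusted p = 2.9e-07). Ifi27 and Ifi27l2a, small mitochondrial proteins of 1 family, lie 1927 bases apart on chromosome 12. Ifi27l2a averaged 3.48 ± 0.688 CPM in knockout and 1.53 ± 0.237 CPM in control cultures (SD, n = 3 each; log2 fold change 1.19, SE 0.22). Ifi27 averaged 111 ± 2.31 CPM in knockout and 98.7 ± 4.87 CPM in control cultures (SD, n = 3 each; log2 fold change 0.17, SE 0.05, adjusted p = 0.010). Among members, Ifi27 alone lost its call under another scaling or with a library left out. Its adjusted p was 0.096 when scaled by total counts and 0.053 without knockout replicate 1, in a range from 0.0049 to 0.096 over the alternatives that test for any difference.

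Both genes of the galectin system rose. Lgals9, galectin-9, a secreted sugar-binding protein that acts on immune cells, was at 139, 141 and 134 CPM in the knockout libraries, against 47.9, 47.3 and 42.8 CPM in the control libraries (log2 fold change 1.59, SE 0.06, adjusted p = 2.6e-13). Lgals3bp, a secreted glycoprotein that binds galectins, was at 345, 347 and 340.2 CPM in the knockout libraries, against 148, 151 and 141 CPM in the control libraries (log2 fold change 1.23, SE 0.04, adjusted p = 3.3e-13). In both genes the 3 knockout libraries were close together and control replicate 3 was the lowest of all 6 libraries.

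Signalling regulators and remaining effectors rose in 5 of 5, from 0.66 to 2.12 on the log2 scale. Ifi44, a cytoplasmic protein found in microtubular aggregates (ENSMUSG00000028037, GRCm38 chromosome 3, 151730922 to 151749960, minus strand), was at 422, 486 and 426 CPM in the knockout libraries, against 106, 106 and 98.0 CPM in the control libraries (log2 fold change 2.11, SE 0.06, adjusted p = 1.3e-14). Nmi, which encodes a binding partner of IFI35, was at 48.8, 46.1 and 43.5 CPM in the knockout libraries, against 19.4, 22.9 and 22.3 CPM in the control libraries (log2 fold change 1.10, SE 0.07, adjusted p = 2.2e-09). Trafd1, a feedback inhibitor of innate signalling, was at 163, 166 and 162 CPM in the knockout libraries, against 106, 102 and 103 CPM in the control libraries (log2 fold change 0.66, SE 0.04, adjusted p = 2.2e-09). Groups stayed apart for all 3, with knockout replicate 2 highest for Ifi44 and Trafd1 and knockout replicate 1 highest for Nmi. Ifi35, the partner of NMI, averaged 63.7 ± 4.76 CPM in knockout and 33.2 ± 2.91 CPM in control cultures (SD, n = 3 each; log2 fold change 0.94), close to Nmi in size, and 16.8% of its exon length overlaps the antisense gene Gm11626. Epsti1 had a large fold at a low level, 5.16 ± 0.647 CPM in knockout and 1.18 ± 0.252 CPM in control cultures (SD, n = 3 each; log2 fold change 2.12, SE 0.20).

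The members spanned a wide range of levels. Per kilobase of exon, the highest mean level was that of Ifitm3, with 1200.3 in knockout and 681 in control cultures (CPM per kilobase). Isg15, with 594 in knockout and 219.9 in control cultures, stood above Bst2, with 453 in knockout and 224 in control cultures, in knockout but not in control cultures (CPM per kilobase). The 3 lowest in both groups were Sp100, with 3.11 in knockout and 0.560 in control cultures, Ms4a4d, with 3.65 in knockout and 0.493 in control cultures, and Epsti1, with 2.22 in knockout and 0.510 in control cultures (CPM per kilobase). Genes with a lower control level tended to have a larger fold, with a Spearman correlation across the 41 genes of −0.46 between the log2 fold change and the control level per kilobase. These 41 points share the same 6 libraries and the control level enters both quantities, so the value is a description.

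**Figure D3:**
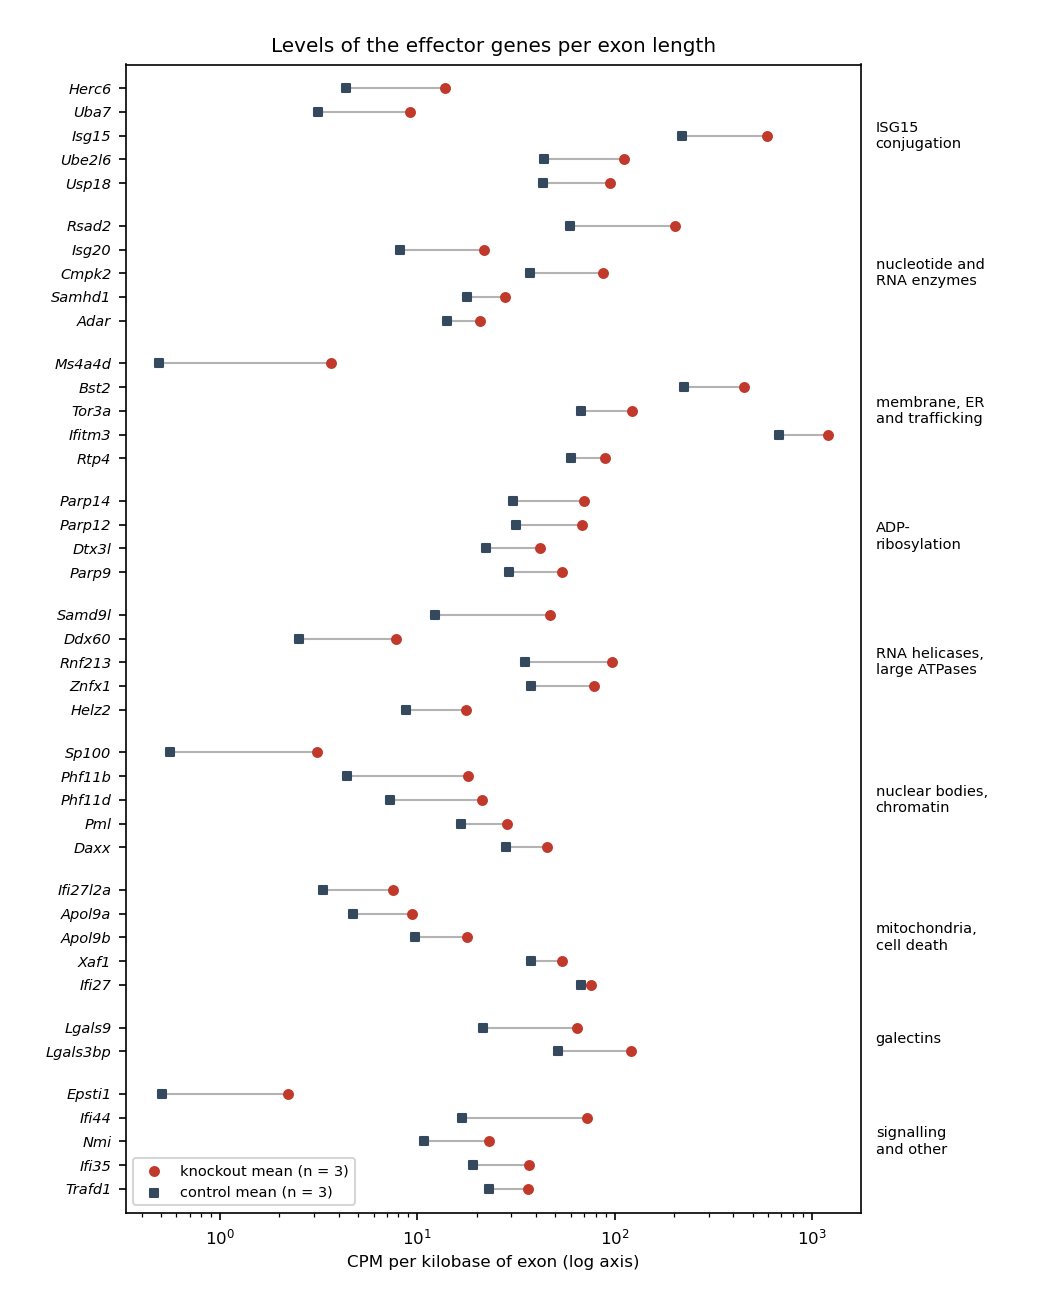
Each row is 1 gene, with its mean level in knockout (circle) and control (square) cultures in CPM per kilobase of exon on a log axis, joined by a line whose length is the fold change. Every circle lies right of its square, from Epsti1, Sp100 and Ms4a4d at the low end to Ifitm3, Isg15 and Bst2 at the high end.

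Other genes of the interferon pathway were read from the same test. Of 9 interferon genes listed, 1 had enough counts to be tested. Ifnb1, interferon beta, was at 2.45, 1.85 and 2.79 CPM in the knockout libraries, against 0.257, 0.116 and 0.231 CPM in the control libraries (log2 fold change 3.53, SE 0.35, adjusted p = 3.0e-07), from 234, 135 and 204 counts in the knockout libraries and 16, 8 and 25 counts in the control libraries. Ifna4 had 17, 14 and 6 counts in the knockout libraries and 0 in each control library, and Ifng had 4, 0 and 0 counts in the knockout libraries and 0 in each control library. Ifnl2, an interferon lambda gene, had 4, 15 and 0 counts in the knockout libraries and 5, 0 and 7 counts in the control libraries. Ifna1 and Ifna2 had counts in 1 knockout library each, 4 and 3, and 0 in every other library. Ifnk, Ifne and Ifnl3 had 0 counts in all 6 libraries. Ifna4 passed the filter and was called in 4 of the fits that left out a library, and in the fit with no filter (adjusted p = 0.011).

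Genes of interferon receptors and signalling moved in both directions. Of 24 tested, 14 rose, 3 fell and 7 did not pass the test, with a median log2 fold change of 0.18. The transcription factor gene Irf7, which amplifies type I interferon production, averaged 268 ± 7.69 CPM in knockout and 112 ± 2.43 CPM in control cultures (SD, n = 3 each; log2 fold change 1.26). The kinase gene Jak2, which serves the interferon gamma receptor, averaged 220.5 ± 9.66 CPM in knockout and 88.7 ± 2.92 CPM in control cultures (SD, n = 3 each; log2 fold change 1.31). The log2 fold changes of Stat2 and Irf1 were 0.80 and 0.54. Irf9, which encodes the DNA-binding part of ISGF3, differed little, with 105 ± 6.28 CPM in knockout and 94.3 ± 3.51 CPM in control cultures (SD, n = 3 each; log2 fold change 0.15, adjusted p = 0.036). Over the alternatives that test for any difference its adjusted p ran from 0.023 to 0.23. It missed the threshold with a replicate block (0.056), under upper-quartile scaling (0.059) and when scaled by total counts (0.23). It also did so without knockout replicate 2 (0.12), without control replicate 1 (0.080) and without control replicate 2 (0.20). The type I receptor genes were slightly higher, Ifnar1 by 0.19 and Ifnar2 by 0.18 (adjusted p = 0.0029 and 0.020). That of Ifnar2 ran from 0.013 to 0.13 over the alternatives that test for any difference, and was 0.13 when scaled by total counts, 0.059 without knockout replicate 1, 0.060 without control replicate 2 and 0.075 without control replicate 3. The interferon gamma receptor genes did not pass the test, with −0.09 for Ifngr1 (adjusted p = 0.24) and 0.04 for Ifngr2 (adjusted p = 0.58). Nor did Ifnlr1 and Il10rb, the genes of the interferon lambda receptor. The 3 that fell, named after their values were seen, were Irf3 (−0.37), the feedback inhibitor gene Socs3 (−0.47) and the phosphatase gene Ptpn6 (−1.66), which blood cells express.

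The other families of interferon-stimulated genes rose alongside. All 15 genes of the IFIT, OAS and MX list were higher (median log2 fold change 1.57), as were all 16 GBP and IRG GTPase genes (median 1.97). Those with the smallest p were Ifit2, an RNA-binding antiviral protein gene, at 2.10, and Mx1, an antiviral GTPase gene, at 2.44. In the GTPase list they were Gbp9 at 2.52 and Iigp1 at 2.23, both of which belong to the defence against microbes inside cells. These lists and the members share the same 6 libraries, and whether their medians differ was not tested.

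**Figure D4:**
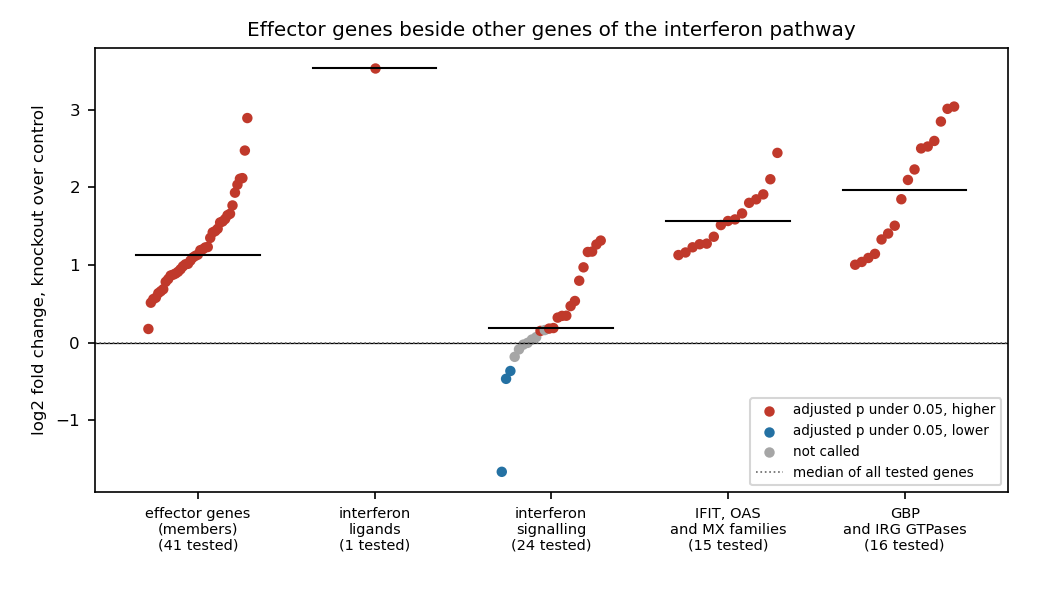
Each point is 1 tested gene, placed by its log2 fold change of knockout over control, with a black line at the median of each list. The effector genes, the IFIT, OAS and MX families and the GBP and IRG GTPases lie entirely above 0, Ifnb1 is the single tested ligand at 3.53, and the 24 signalling genes spread to both sides of 0.

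Markers of cell types were compared between the same groups, and their part in these results was not tested. Of all tested genes, 19.6% were called higher and 18.7% lower, the shares to set beside the counts below. Astrocyte markers were present in both groups. They summed to 2719 to 2848 CPM in the knockout libraries and 2966 to 3031 CPM in the control libraries, a sum that joins moves in both directions. Of 10 markers, 2 were higher (Slc1a2 and Aqp4, log2 fold changes 1.48 and 0.54) and 6 lower. Gfap, whose promoter drives Cre, was among the lower ones. It averaged 431 ± 3.85 CPM in knockout and 946 ± 20.8 CPM in control cultures (SD, n = 3 each, log2 fold change −1.13). Fibroblast and meningeal markers summed to 4813 to 5438 CPM in the knockout libraries and 3120.2 to 3300.2 CPM in the control libraries, with 8 of 9 tested higher and 0 lower. The collagen genes Col1a1 and Col1a2 gave most of that, with means of 2976 and 1507 CPM in knockout and 1950 and 864 CPM in control cultures. Foxc1 was not called (log2 fold change −0.20), and Slc22a6 had too few counts to be tested. Endothelial markers summed to 157 to 163 CPM in the knockout libraries and 95.9 to 100.5 CPM in the control libraries, with 4 of 7 tested higher and 0 lower. Most of this sum came from Flt1 and Cdh5, with means of 68.1 and 53.4 CPM in knockout and 43.5 and 26.8 CPM in control cultures. Pecam1, Tek and Emcn were not called, at low means of 1.40, 1.54 and 0.195 CPM in knockout cultures. The defining marker Cldn5 had too few counts to be tested. Microglia and macrophage markers summed to 91.8 to 99.2 CPM in the knockout libraries and 139.7 to 147 CPM in the control libraries, with 1 of 15 higher and 12 lower. Oligodendrocyte lineage markers (1 of 7 tested higher, 3 lower) summed to 233 to 268 CPM in the knockout libraries and 262 to 264 CPM in the control libraries. The largest part of this sum was Cspg4, the 1 higher, with means of 185 CPM in knockout and 152 CPM in control cultures. The 3 lower were Olig1, Olig2 and Sox10, with log2 fold changes of −0.86, −0.44 and −2.98, the last at 0.0592 and 0.458 CPM. Neuronal markers (0 of 8 higher, 2 lower) summed to 129.6 to 134 CPM in the knockout libraries and 121 to 139 CPM in the control libraries. Map2 and Tubb3 made up most of it, with means of 88.4 and 33.2 CPM in knockout and 80.7 and 40.8 CPM in control cultures. Of 10 markers of T cells, NK cells and plasmacytoid dendritic cells, none had enough counts to be tested, and 7 of them, among them Cd3e, Cd8a, Cd4 and Ncr1, were at 0 in all 3 knockout libraries. Nkg7 and Ncr1 were at 0 in all 6 libraries, and in the other lists no marker was at 0 throughout a group.

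**Figure D5:**
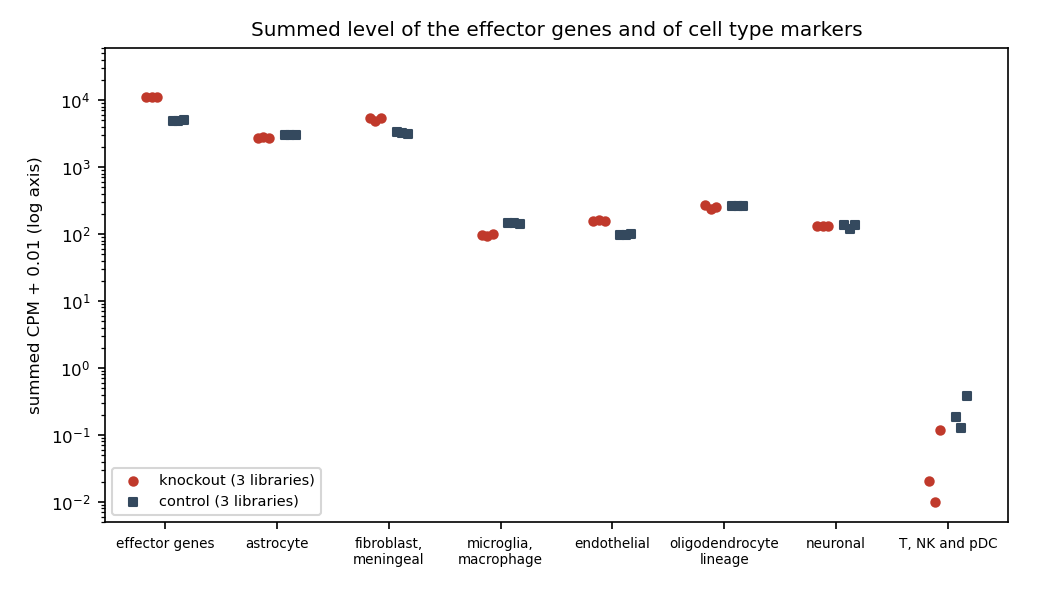
Summed CPM of the 41 effector genes and of each marker list, 1 point per library, with 0.01 CPM added and a log axis; knockout libraries (circles) stand left of control libraries (squares). The effector genes sum to 10970.4 to 11252 CPM in the knockout libraries and 4925 to 5044 CPM in the control libraries, while the lymphocyte and plasmacytoid dendritic cell markers stay below 1 CPM in all 6 libraries.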

How the data were processed

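RNA from 6 libraries of primary mouse astrocyte cultures was analysed, 3 knockout and 3 control. The authors deposited raw read counts for every gene, made per the submitters' processing notes with HISAT2 2.2.1 and featureCounts 2.0.6 on GRCm38. The sources used here name no annotation release, strand setting or rule for multi-mapping reads, each of which can move counts of copied or overlapping genes. Columns were matched by library name. Libraries of a group were compared pair by pair and none was a duplicate (their chi-square divided by the number of genes was 5.97 to 21.8).

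Genotypes were compared in edgeR 4.0.16 (R 4.3.3): filterByExpr (minimum count 10, minimum total 15; 18530 genes kept), TMM scaling, then a robust glmQLFit and a two-sided glmQLFTest with genotype as the only term. P-values were adjusted by Benjamini-Hochberg across these genes, with calls made under 0.05. All 41 members passed the filter, the lowest count being 35. The procedure was tested on simulated data. The members, roles and lists were chosen with earlier results of these data known, so no test over a list was made. Every library is given for the 3 members of each role with the smallest p; other members get means. Positions and exon lengths came from GENCODE M21 (54495 of 54532 identifiers matched), near-identical copies from BLAST (at least 95% identity over 100 bases), and promoters from RefSeq. Alternatives were 3 other scalings, DESeq2 1.42.0, limma-voom (limma 3.58.1), other filters, a non-robust fit, blocking on replicate number, omission of each library in turn, a threshold of 0.01 and a test against a fold of 1.5. The pathway lists and signalling genes were added to these alternatives after the data were seen. The values of 1 signalling gene are not reported here.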

Additional observations from a re-analysis of the deposited data

How the results depend on the processing

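All 41 members kept their direction in each of the 17 alternatives, and 687 of 697 member results stayed on the same side of the threshold. The count of members called higher was 40 when scaled by total counts, 40 at a threshold of 0.01 and 34 when tested against a fold of 1.5; the lost calls were Ifi27 in all 3 settings and without knockout replicate 1, and also Samhd1, Adar, Rtp4, Daxx, Xaf1 and Trafd1 against that fold. Leaving out 1 library at a time gave 40 to 41 members higher and 0 lower, a median log2 fold change of 1.11 to 1.15, and 2907 to 3517 genes higher and 2753 to 3431 lower over all genes. The median was 1.07 when scaled by total counts, a scaling that put the median of all genes at −0.067. Against a fold of 1.5, 666 genes were higher and 348 lower, and 6 interferon signalling genes were higher and 1 lower. Scaled by total counts, 2921 genes were higher and 4499 lower. The count of interferon ligands called was 2 with no filter and 1 to 2 with a library left out, because Ifna4 then entered the test. Ifngr2 turned to −0.027 when scaled by total counts, where Ifngr1 passed the threshold (adjusted p = 0.034, in a range of 0.034 to 0.53 over the alternatives that test for any difference); the cause was not tested.

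Libraries with the same replicate number did not deviate together (correlations of 0.015, 0.019 and −0.0082 for numbers 1, 2 and 3, and not every library correlated best with its own number), so the numbers were not taken as pairs. With a replicate block, 41 members, 3501 genes in all higher and 3383 lower were called. Of Neo1, the members, Ifnb1 and the signalling genes followed through the alternatives, Irf9 lost its call (adjusted p = 0.056). Other genes named in the text were not followed 1 by 1. Depth was not limiting for the members, apart from Ms4a4d, Epsti1 and Ifi27l2a with SEs of 0.22, 0.20 and 0.22.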

Other observations

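Within the knockout group the libraries were not equal. Knockout replicate 2 was the highest of the 3 knockout libraries for 23 of the 41 members. Knockout replicate 1 was highest for 10 and knockout replicate 3 for 8, a split that was not counted over all tested genes. Examples, chosen after their values were seen, are Herc6, with 142 CPM in knockout replicate 2 against 119.8 and 122 CPM in knockout replicates 1 and 3, and Ddx60, with 75.1 CPM against 63.9 and 64.7 CPM. The same library held the highest sum of the IFIT, OAS and MX list (5075 CPM, against 4718 and 4653 CPM) but the lowest level of Ifnb1 among the knockout libraries (1.85 CPM, against 2.45 and 2.79 CPM).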
